A study of Mus musculus with 54 samples.

Results

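The genes described here are 7 members of the inflammasome pathway: Casp1, Casp4, Nlrp3, Pycard, Gsdmd, Il18 and Aim2, out of 23481 gene rows in the expression table. Casp1 and Casp4 were chosen by their measured values, because both were higher in each of the intravasating clones than in most other clones, and the other 5 were taken with them as listed members of the pathway. RNA-seq had been made from 23 clones of 4T1, a mouse mammary carcinoma line that spreads from the mammary gland to the lung, to look for genes overexpressed in clones that enter blood vessels. Each clone had been grown out from 1 sorted cell and tested, pooled with the rest, for intravasation. By the labels, E and T were the intravasating clones and the other 21 were non-intravasating. Orthotopic tumors (Tumor_1, Tumor_2) and lung metastases (Lung_1, Lung_2), 2 of each, were profiled too. The clones carried no other treatment or engineered allele in the labels, which give no mouse strain, age or collection time for the specimens and do not say whether tumor cells were separated from host tissue. Every clone and specimen had 2 libraries, lettered A and B, with 8849257 to 31609870 recovered reads each. Nothing says that the 2 libraries came from separate cultures or RNA preparations, so p-values among clones measure only the spread between them, which may be technical.

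An inflammasome is a cytosolic platform that activates an inflammatory caspase. Sensors such as Nlrp3, which responds to ion efflux and membrane damage, and Aim2, which binds cytosolic DNA, recruit the adaptor ASC, encoded by Pycard, and ASC recruits caspase-1. Caspase-1 matures the cytokine interleukin-18, encoded by Il18, and cleaves gasdermin D, encoded by Gsdmd, whose amino-terminal part forms pores in the plasma membrane. The product of mouse Casp4 binds bacterial lipopolysaccharide in the cytosol directly and also cleaves gasdermin D. The pathway is best known in macrophages, and many epithelial cells carry parts of it. All of the values here are RNA levels, which do not show whether a caspase or cytokine was activated.

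Levels are given as normalized counts recovered from the deposited log2 values, as the mean of the 2 libraries unless both are given. Differences and their standard errors (SE) are on the deposited log2 scale, which is compressed for genes with few reads and bottoms out at 5.03 for a gene without reads. Per kilobase of the annotated principal transcript, the median clone had 174.2 normalized counts of Gsdmd, 62.2 of Il18, 53 of Casp1, 17.5 of Casp4, 6.79 of Pycard, 0.762 of Aim2 and 0.587 of Nlrp3. On this per-length scale the pore-forming effector lay at the top and both sensors at the bottom. Pycard was divided by a GENCODE length of 3800 bases, which is longer than its whole RefSeq interval. Its per-length value may therefore be too low, and its place relative to Casp4 and the other members is uncertain. All 7 members entered the test among clones, which took genes that reached 10 normalized counts in 2 or more libraries. Aim2 met that level in only 3 of the 46 clone libraries, both of clone G and 1 of clone D, and Nlrp3 in 6, so these genes passed through the clones where they were high.

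**Figure D1:**
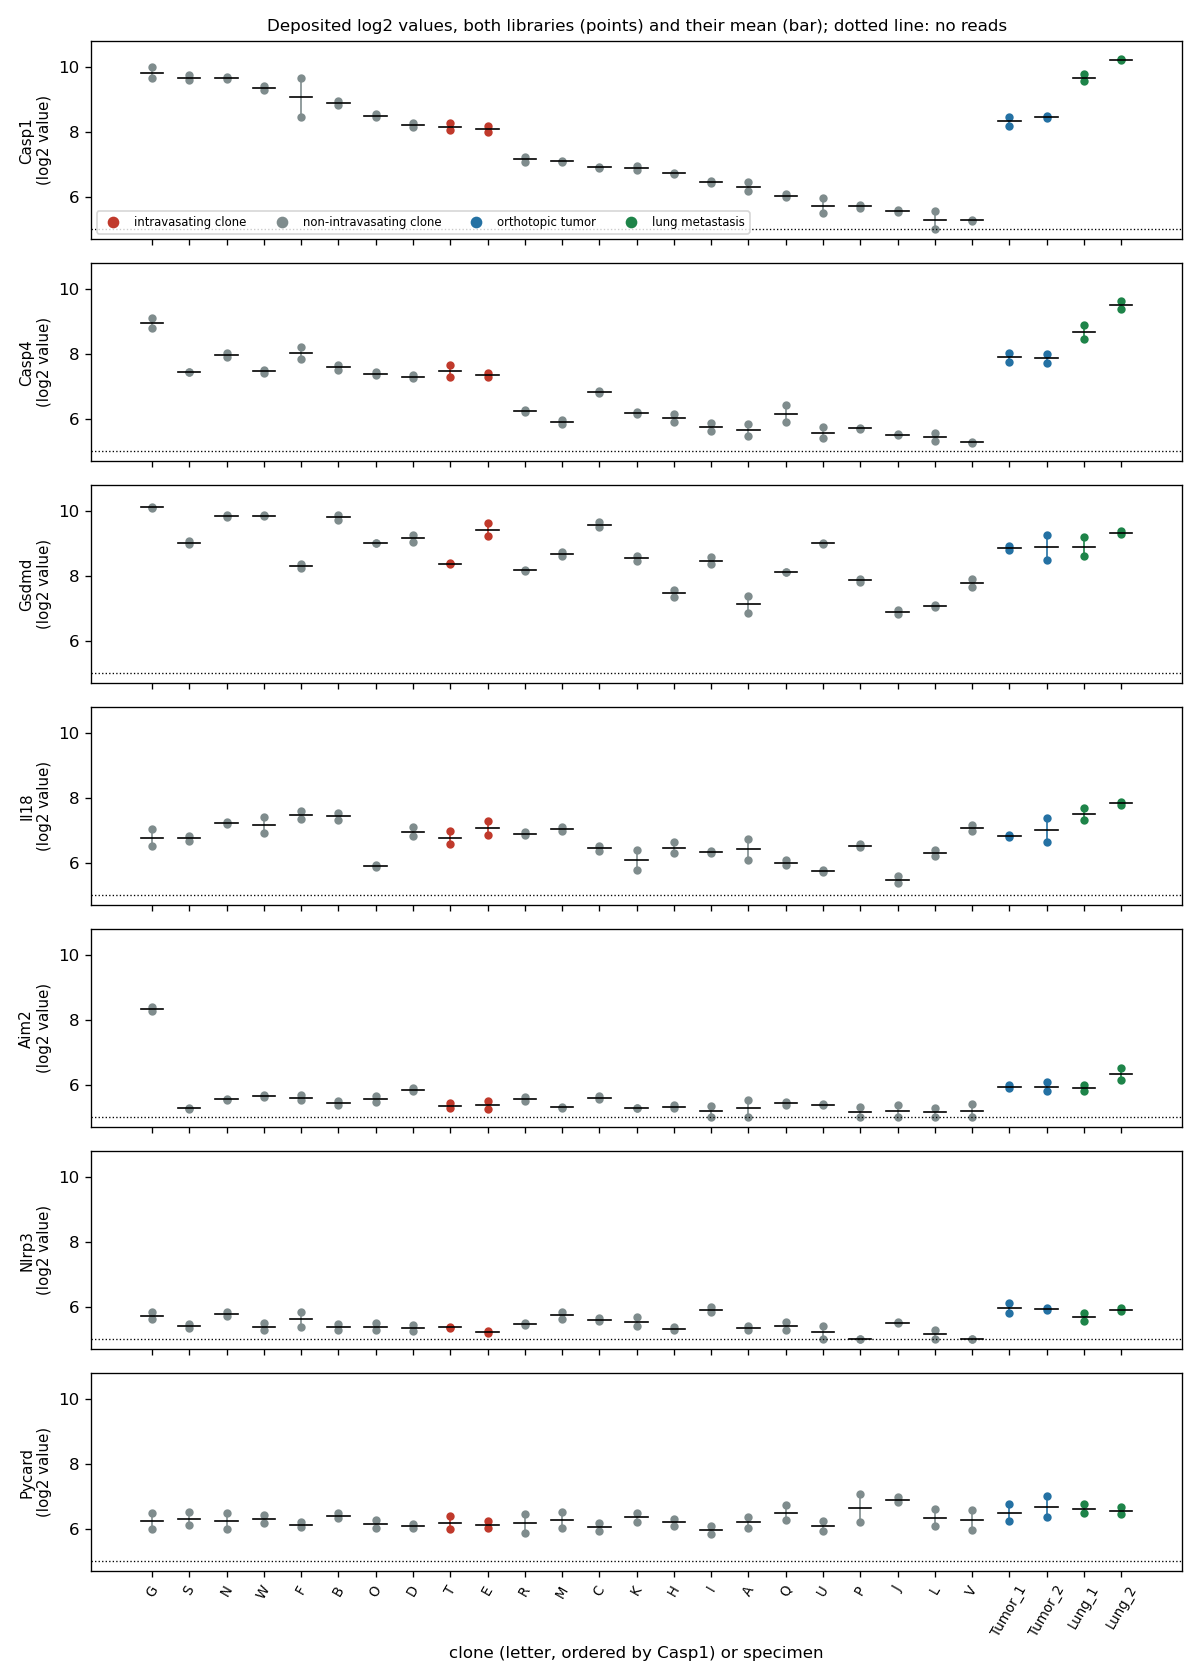
Deposited log2 values of the 7 members (one panel each, same vertical scale) in the 23 clones, ordered by Casp1, and in the 4 specimens; points are the 2 libraries, bars their mean, and the dotted line is the value of a gene without reads. Casp1 and Casp4 are high and low in the same clones, Aim2 stands out in clone G, and Nlrp3 and Pycard stay near the bottom of the scale.

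Casp1, on chromosome 9 from 5298517 to 5307281 (GRCm38, plus strand), encodes the caspase that inflammasomes activate. Its normalized counts were 196.7 in library A and 231.4 in library B of clone E, and 246 and 206.1 in clone T. Over the 21 other clones the lowest was 1.03 (clone V), the median 64.4 and the highest 854.2 (clone G). Both intravasating clones exceeded 13 of the 21, and 8 non-intravasating clones lay above both: G, N, S, W, F, B, O and D. Clone V had 1 read in each library, and 1 library of clone L had none. The libraries of clone G had 964.3 and 744.1 normalized counts, those of N 770.6 and 739.1, and those of S 795.4 and 714.5. Clone F was the least even, with 293.8 and 755.1. Of the 22 neighbouring pairs of clones in the order of levels, 12 had overlapping libraries and could not be ranked.

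Casp4, which starts just downstream of Casp1 on the same strand and runs from 5308849 to 5336791 (GRCm38), encodes the lipopolysaccharide-binding inflammatory caspase. It had 99.9 and 111.3 normalized counts in clone E and 141.7 and 97.2 in clone T. The other 21 clones ran from 1.03 (clone V) through a median of 23 to 439.4 (clone G), with clone F second at 205.1. Clone E exceeded 14 of them and clone T 16. Of the 13637 genes tested among clones, 26.5% had E and T each above 11 or more of the 21 by clone mean. That cutoff was set here to stand for most other clones. Casp1 and Casp4 were selected on this contrast, so these ranks describe them and carry no test. In clones E and T together the 2 caspase genes stood at mid to upper levels of the panel, not at its top.

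The 23 clones fell into separate ranges of Casp1. The widest step between neighbours was 0.94 on the log2 scale, between clone R with 85.1 normalized counts and clone E with 214.1, and the next widest step was 0.39. Above it lay 10 clones (B, D, E, F, G, N, O, S, T and W) with a median of 469.6, and below it 13 clones with a median of 28.3. The same split also separated Casp4 without overlap: the 10 clones ran from 99.9 to 439.4 and the 13 from 1.03 to 58.2. Gsdmd ran from 257 to 1047 in the 10 and from 63.1 to 702.7 in the 13, and Il18 from 12.3 to 120.3 and from 3.53 to 78.7, so both overlapped. Nlrp3 medians were 2.31 and 2.59, and Pycard medians 24.7 and 27.6. The split was defined from these values after they were seen, so no test of it is given. Clones E and T lay at the low end of the 10, where their libraries overlapped those of clone D.

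Casp1 and Casp4 varied together over the clones. Pearson's r between their deposited log2 values was 0.94 over 23 clone means, 0.64 within the 10 clones above the step and 0.77 within the 13 below it. None of the 13607 other genes compared was as closely matched to Casp1 over the 23 clones as Casp4 was. These are descriptions: each clone gives both genes from the same libraries, and part of the pooled value is the step between the 2 ranges. The genes did not keep a fixed proportion. Among the 16 clones with at least 10 normalized counts of each, the Casp1 to Casp4 ratio of normalized counts ran from 0.731 in clone Q to 6.51 in clone S, with 2.03 in E and 1.89 in T. The 2 genes are paralogs, and reads from stretches they share could be assigned to either one.

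**Figure D2:**
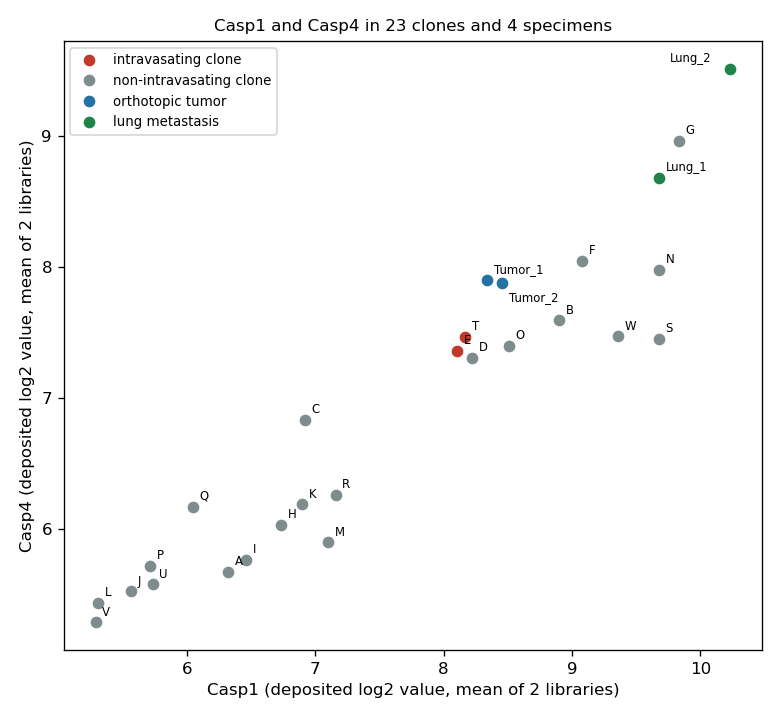
Casp4 (vertical axis) against Casp1 (horizontal axis), both as deposited log2 values averaged over 2 libraries, with 1 point per clone or specimen. The 13 clones with at most 85.1 normalized counts of Casp1 sit at lower left, clones E and T sit at the low end of the upper range, and Lung_2 lies at the upper right corner.

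The genes next to the pair were followed on chromosome 9. Casp12, another inflammatory caspase of the cluster, from 5345442 to 5373034, had r = 0.85 with Casp1 over the 23 clones, 0.33 within the 10 clones above the step and 0.5 within the 13 below. Its clone means ran from 7.07 to 607 normalized counts, highest in clone N and not in clone G, which had 316.3. On the other side, Msantd4 (702.2 to 1367 normalized counts) and Kbtbd3 (20.3 to 62.1) had r = 0.09 and -0.07 with Casp1. Gria4, Pdgfd and Ddi1, the remaining neighbours within 3 genes on each side, had clone means of at most 1.61, 1.2 and 0.535 normalized counts and were not tested. Casp12 had r = 0.79 with Casp4 over the 23 clones, but 0.17 above the step and 0.25 below it, so within either range it followed Casp4 only weakly.

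The starts of Casp1 and Casp4 are shown because these neighbours varied together. Each sequence is the 250 bases before the RefSeq start (GRCm38.p6, plus strand, 5′ to 3′), and capitals mark a match to a motif.
Casp1, chr9:5298267-5298516: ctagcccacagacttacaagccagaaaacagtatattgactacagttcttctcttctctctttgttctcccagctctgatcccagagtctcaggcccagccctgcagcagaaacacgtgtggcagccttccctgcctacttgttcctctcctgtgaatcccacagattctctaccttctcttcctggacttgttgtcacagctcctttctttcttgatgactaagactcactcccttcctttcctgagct
Casp4, chr9:5308599-5308848: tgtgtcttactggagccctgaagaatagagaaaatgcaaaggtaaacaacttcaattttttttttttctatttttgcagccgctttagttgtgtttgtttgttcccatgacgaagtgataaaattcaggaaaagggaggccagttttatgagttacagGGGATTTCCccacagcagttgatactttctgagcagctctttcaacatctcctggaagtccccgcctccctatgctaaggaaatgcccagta
Both strands were searched for GAAANNGAA (interferon response element core), TTCNNNGAA (STAT site), GGANTTTCC (NF-kB site core) and TGANTCA (AP-1 site), and none of these letters occurred in either window. They occurred in 7.1%, 7%, 1.1% and 6.7% of 32851 windows of the same length. A further form of the NF-kB core, GGGNTTTCC, was added after the Casp4 sequence had been seen. It matched Casp4 at -92 to -84 from the start, as capitals show, and was present in 1.5% of all windows. It did not match Casp1. Of the other members with a promoter entry, Nlrp3 had a match to each form of the NF-kB core, in windows of different starts, and Aim2, Pycard and Il18 had no match. The Aim2 window, chr1:173420354-173420603, precedes another transcript start inside the Aim2 interval given below, so the start of that interval was not searched. A match is a description of the sequence, and binding was not measured.

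Gsdmd, on chromosome 15 from 75862144 to 75867408 (GRCm38, plus strand), encodes the pore-forming substrate of both caspases. It had 538.5 and 724.8 normalized counts in the libraries of clone E and 277.1 and 268.5 in clone T. The other 21 clones ran from 63.1 (clone J) through 312.1 to 1047 (clone G), with W second at 867.2. Clone E exceeded 16 of them and clone T 9. The libraries of E and T did not overlap. Its r over the 23 clones was 0.75 with Casp1 and 0.76 with Casp4. Clones C, U, F and T departed from the pairing. C had 702.7 and U 452.6 normalized counts of Gsdmd with Casp1 in the lower range. F had 257 and the intravasating clone T 272.8 with Casp1 in the upper range.

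Il18, on chromosome 9 from 50554700 to 50581841 (GRCm38, plus strand), encodes the cytokine that caspase-1 matures. It had 60.6 and 98.5 normalized counts in clone E and 69.5 and 41.2 in clone T. The other clones ran from 3.53 (clone J) through 39.3 to 120.3 (clone F), with clone B next at 114.8, and E and T exceeded 16 and 12 of them. Clone G, the highest for Casp1, Casp4, Gsdmd and Aim2, had 75.2 and 37.6. Over the 23 clones r was 0.59 with Casp1 and 0.53 with Casp4. Bco2, a carotenoid-cleaving enzyme gene from 50533087 to 50555214, overlaps the Il18 start, and Tex12 lies inside the Il18 interval. Bco2 was the gene most like Il18 over the clones, at r = 0.86, with 7.4 to 53.3 normalized counts. The strand setting of the counting is not given in the sources used here, so reads from these overlapping genes cannot be told apart and the Il18 values are uncertain to that extent.

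Aim2, annotated on chromosome 1 from 173349547 to 173466040 (GRCm38, plus strand), encodes the DNA sensor. It had few reads in every clone but G. Clone G had 275 and 252.7 normalized counts, clone D came next with 9.84 and 12.6, and the median of the 21 non-intravasating clones was 2.16. Clone E had 3.57 and 0.801, and clone T 2.74 and 1.06, each from 7 reads or fewer. The value of 1 read in the clone libraries was 0.51 to 1.95 normalized counts, so differences among clones other than G and D rest on a few reads.

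Nlrp3, on chromosome 11 from 59541569 to 59566955 (GRCm38, plus strand), encodes the sensor of membrane damage, and it was low throughout. It had 1 read in each library of clone E and 2 in each of clone T. The other clones ran from 0 in clones P and V, with no read in either library, through a median of 2.49 to 12.9 in clone I. Of the 22 neighbouring pairs in the order of clones, 20 had overlapping libraries. Neither sensor was higher in E or T than in more than 10 of the 21 others.

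Pycard, on chromosome 7 from 127991373 to 127993867 (GRCm38, minus strand), encodes the adaptor between sensor and caspase. It had 25.5 and 16 normalized counts in clone E and 15.6 and 31.7 in clone T, against 14.9 (clone I), 26.7 and 63.9 (clone J) as the lowest, median and highest of the others. E exceeded 4 of them and T 7. Its r with Casp1, Casp4 and Gsdmd over the 23 clones was -0.28, -0.25 and -0.39. All 22 neighbouring pairs overlapped, so no order of clones could be read.

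**Figure D3:**
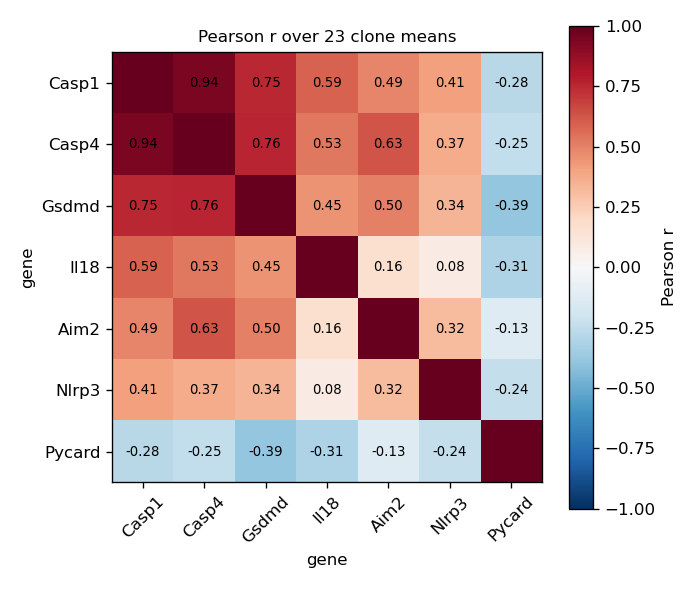
Pearson's r between the deposited log2 values of each pair of members over the 23 clone means. Casp1, Casp4 and Gsdmd form a block at 0.75 to 0.94, and Pycard has values from -0.39 to -0.13 with the 6 others.

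Differences among the 21 non-intravasating clones were tested with limma's moderated F-test, leaving E and T out of the contrast. Of the 7 members, 6 passed, Aim2 and Nlrp3 among them, and 95.2% of the 13637 genes tested did so, so passing is the rule in this panel and the size of the variation is more informative. The range of clone means was 4.54 on the log2 scale for Casp1 (adjusted p = 1.16e-22) and 3.68 for Casp4 (adjusted p = 5.45e-21). Only 1.38% of genes tested had a range at least as wide as Casp1's and 2.83% one at least as wide as Casp4's. Gsdmd spanned 3.22 (adjusted p = 1.96e-22) and Il18 1.99 (1.14e-10), against a median of 1.14 over all genes. Aim2 spanned 3.17 and Nlrp3 0.89, and since both entered the test only through the clones where they were high, their passing is given as a description. Without clone G, Aim2 no longer had 2 libraries at 10 counts and was not tested. Pycard spanned 0.93 and did not pass (adjusted p = 0.25), and its SD between clones, 0.21, was below its SD between libraries, 0.29. For Casp1 the SD between clones was 1.58 and between libraries 0.23, and for Casp4 1.05 and 0.16.

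The 2 intravasating clones were then compared with each other, a difference the choice of members had not used. Gsdmd was higher in E than in T by 1.04 ± 0.13 (SE, limma, adjusted p = 2.51e-07), and it was the only 1 of the 7 members past the threshold, where 15.3% of all genes tested were higher in E and 13.4% lower. Casp1 differed by -0.06 ± 0.21 (adjusted p = 0.862) and Casp4 by -0.11 ± 0.16 (0.655), and their libraries overlapped. Il18 differed by 0.3 ± 0.2 (0.276). Nlrp3, Aim2 and Pycard differed by -0.15 to 0.01. Casp12 was higher in E, by 0.9 ± 0.22 (adjusted p = 0.00182), with 411.8 normalized counts against 194.8. Of 10 sensors and adaptors tested, 4 were higher in E and 0 lower, among them Txnip, whose protein can bind Nlrp3, by 2.08 ± 0.15 (4.06e-12), and P2rx7, the ATP-gated channel upstream of Nlrp3, by 0.55 ± 0.13 (0.00175). The other 2 were Nek7, an Nlrp3-binding kinase gene, at 0.34 ± 0.11 (0.0174), and Nlrp10, named after its values were seen, at 7.24 normalized counts in E and no read in T. Il18rap, a subunit of the interleukin-18 receptor, differed by -1.2 ± 0.13 (1.83e-08).

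Other genes of the pathway were tested among the 21 clones in the same way, where 95.2% of all genes passed, so the counts that pass are near the general share and the ranges are given beside them. Of 10 caspase genes, 9 were tested and all 9 varied, with a median range of 1.8 on the log2 scale against 1.14 over all genes. Casp1, Casp4 and Casp12 had the widest ranges, and Casp8, the initiator of death receptor signalling, had the narrowest at 0.71. Of 17 sensors and adaptors, 10 were tested and 8 varied, led by Txnip at 4.83 (adjusted p = 5.7e-26). Of 8 genes for gasdermins and membrane rupture, 4 were tested and varied, and Gsdmd's 3.22 stood beside 1.37 for Dfna5, which encodes gasdermin E, and 1.13 for Ninj1, which ruptures the membrane after pore formation. In the interleukin-1 family and its receptors all 10 genes tested varied, and Il1a, an alarmin cytokine, spanned 8.7 (9.07e-26), with 24420 normalized counts in clone G against a median of 91.9 over the clones. The 20 genes of the interferon axis had a median range of 3.83. The 16 genes listed for guanylate-binding proteins and DNA sensing, here called the guanylate-binding protein list, had 4.79. Guanylate-binding proteins expose lipopolysaccharide of cytosolic bacteria, and the list also holds DNA sensing genes such as Mb21d1 and Tmem173. Every gene of both lists passed, as most genes did. The 7 members' own ranges lay between 0.89 and 4.54. Clone G had the highest summed level of both lists, at 43380 and 38450 normalized counts, against clone medians of 5823 and 6001.

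Members were also correlated with each list, taken as the mean deposited log2 value of its tested genes other than the members. Casp1 and Casp4 had r = 0.86 and 0.84 over the 23 clones with the other sensors and adaptors, and 0.81 and 0.82 with the brakes and other death regulators. In the 7 sensors and adaptors averaged, ranges among the 21 non-intravasating clones were 4.83 for Txnip, 2.45 for P2rx7 and 2.09 for Naip2. Nek7 spanned 1.81, Naip5 1.11, Nlrp10 1.1 and Nlrc4 0.6, so Txnip weighed most in that mean. Nlrp3, left out of it, had r = 0.41 with Casp1 and 0.37 with Casp4, and Pycard -0.28 and -0.25. With the guanylate-binding protein list r of Casp1 and Casp4 was 0.76 and 0.83, and with the interferon axis 0.67 and 0.76. It was lower with the other caspases (0.7 and 0.6), gasdermins and membrane rupture (0.52 and 0.51) and priming genes (0.39 and 0.55). With the interleukin-1 family and receptors it was -0.05 and 0.11, and -0.38 and -0.3 without clone G. Aim2 followed the interferon axis at r = 0.87, which was 0.45 without clone G. The same 2 caspase genes had r = 0.8 and 0.81 with the 4 fibroblast markers tested in clones, 0.78 and 0.8 with the 3 pan-leukocyte markers, and -0.79 and -0.77 with the 7 mammary carcinoma markers. With the 4 macrophage markers tested r was 0.11 and 0.16, and -0.27 and -0.4 without clone G. With the 3 neutrophil markers it was 0.51 and 0.61, and with the 3 lung epithelial markers -0.5 and -0.55. Pdgfra, a growth factor receptor gene, made up most of the fibroblast sum, with 117.4 to 1756 normalized counts in the clones. Itgb2, an integrin subunit, made up most of the pan-leukocyte sum, with 126 to 2518 normalized counts in the clones. A gene's share of a summed count is not its weight in r, which follows its log2 spread. Among the 21 non-intravasating clones Itgb2 spanned 3.8 on the log2 scale, Cd53 3.2 and Coro1a 0.67. The defining leukocyte gene Ptprc ran only from 0 to 8.46 there, and C1qa, a macrophage gene, was at 0 in all 46 clone libraries. Tyrobp was at 0 in 45 of them and Laptm5 in 43. Both measures of each clone come from the same libraries, and the part of the marker genes in them was not tested.

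By the stated rule, the genes most like Casp1 over the 23 clones were Xdh, encoding xanthine dehydrogenase (r = 0.92), Sqstm1, an autophagy receptor gene (0.9), Dio2, a thyroid hormone deiodinase gene (0.89), C1rl (0.89) and Lgals3bp (0.88). For Casp4 they were Xdh (0.9), Stat3 (0.89), Tnfsf10, the death ligand TRAIL (0.89), Osmr, the oncostatin M receptor (0.88), and Irgm2, an interferon-induced GTPase gene (0.88). Irgm2 kept r = 0.93 with Casp4 within the 10 clones above the Casp1 step and had 0.32 within the 13 below, and Stat3 had 0.86 and 0.67. For Gsdmd the list was Deptor (0.9), Enpp2 (0.89), Aldh3b1 (0.88), Notum (0.88) and Aldh3a1 (0.86). Aim2 was matched by Iigp1, F830016B08Rik, Prelp, Stfa3 and Akr1c18 at 0.96 to 0.97, all of them highest in clone G. After Bco2, Il18 was matched by Rala (0.83), Ikbip (0.8), Commd4 (0.78) and Zmat1 (0.77). Pycard was matched by 4930455C13Rik (0.85), Snora75, 4930579G18Rik, Pp2d1 and Tmprss11f, all highest in clone J, and Nlrp3 had no gene above 0.62 (Boc, then Bcl2l14, Fam117a, Thumpd2 and Olfr99).

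In the tumors and lung metastases, Casp1 and Casp4 were high in all 8 libraries. Casp1 had 231.5 and 294 normalized counts in the libraries of Tumor_1, 280.6 and 298 in Tumor_2, 813.8 and 700.5 in Lung_1 and 1153 and 1123 in Lung_2. Casp4 had 201.2 and 156.9, 153.4 and 197.5, 408.7 and 294.9, and 728.5 and 609.3 in the same order. For both genes every lung library was above every tumor library. By mean, among the 27 clones and specimens Lung_2 ranked 1, clone G next and Lung_1 3 for both genes. The libraries of Lung_1 overlapped those of clones G, N, S and F for Casp1 and those of G for Casp4, so these could not be ranked. Tumors ranked 10 and 11 for Casp1 and 6 and 7 for Casp4.

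Against orthotopic tumors, lung metastases had higher Casp1 by 1.56 ± 0.17, Casp4 by 1.21 ± 0.23 and Il18 by 0.75 ± 0.15 (SE, limma on 1 value per specimen, 2 against 2, adjusted p = 0.000503, 0.00537 and 0.0063). These 3 of 7 members stand beside 16.6% of 13702 genes tested that were higher and 14.8% that were lower. In normalized counts the lung means were 3.43, 2.88 and 2.18 times the tumor means. Il18 had 56.9 and 60.4 in Tumor_1, 45.6 and 107.5 in Tumor_2, 149.1 and 101.8 in Lung_1 and 175.5 and 162.4 in Lung_2, so 1 tumor library overlapped the lungs. Gsdmd, with specimen means of 404.7 and 426.1 in the tumors and 427.1 and 583.3 in the lungs, differed by 0.25 ± 0.15 (adjusted p = 0.239), Aim2 by 0.18 ± 0.16 (0.418), Nlrp3 by -0.15 ± 0.13 (0.415) and Pycard by 0 ± 0.13 (0.995). The differences of Casp4 and Il18 did not pass without Tumor_1 (adjusted p = 0.0809 and 0.0854) or without Tumor_2 (0.0806 and 0.0518), or in the libraries lettered B alone (0.137 and 0.426), while Casp1 passed in each of these (0.0298, 0.0263 and 0.0387). Aim2 means were 13.9 and 14.2 in the tumors and 12.8 and 30.2 in the lungs, and Pycard means 39.2, 51.3, 44.7 and 41.3. Lung libraries lettered A had reads in 20278 and 19868 genes and those lettered B in 16604 and 16972, which touches genes as low as Aim2 and Nlrp3, and the part of this in their values was not tested. No member passed when the spread was taken from all 27 clones and specimens, in which clones differ widely (0.61 to 0.72 for these genes).

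**Figure D4:**
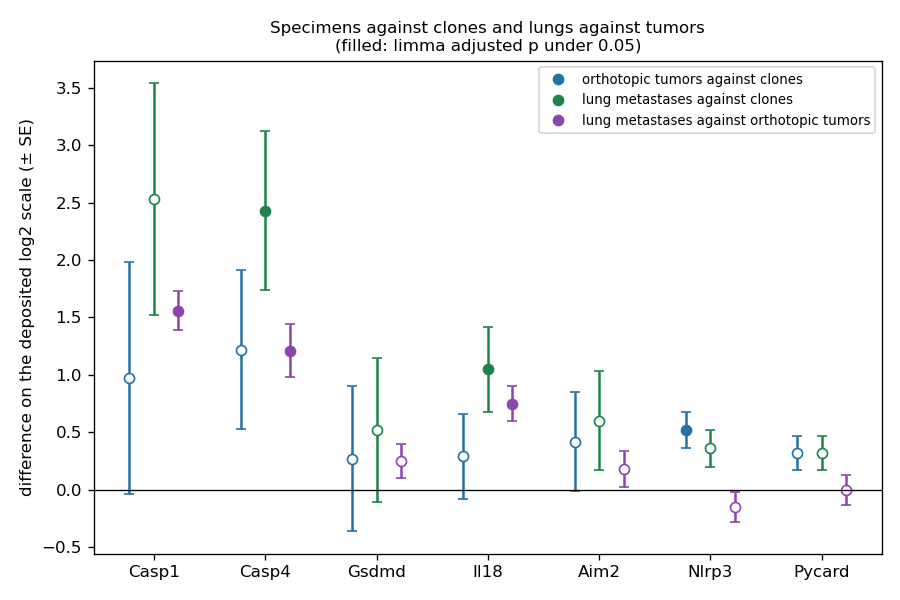
Differences on the deposited log2 scale with SE for the 7 members in 3 comparisons, with filled points for a limma adjusted p under 0.05. Casp1, Casp4 and Il18 are higher in lung metastases than in tumors, with narrow errors from 4 specimens, and the comparisons with clones carry the wide spread among the 23 clones.

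Against the 23 clones, 2 of 7 members were higher in lung metastases, where 12.4% of 14235 genes tested were higher and 6.34% lower. Casp4 was higher by 2.43 ± 0.69 (adjusted p = 0.0134) and Il18 by 1.05 ± 0.37 (0.0444), and Casp1 by 2.53 ± 1.01 did not pass (0.0795). By mean, both lungs had more Il18 than any of the 23 clones, and more Casp1 and Casp4 than all of them but G, although Lung_2 exceeded G as well. For Casp1, Lung_1 (757.1) was level with clones S (755) and N (754.9), whose libraries lay between its own. For Il18, the libraries of Lung_1 overlapped those of clones F, B and W. Without Lung_1 the adjusted p was 0.0831 for Casp4 and 0.192 for Il18, and without Lung_2 0.292 and 0.411, so both calls needed both specimens. Neither passed with log2(normalized count + 1) (0.0683 and 0.123), and Il18 did not pass in the libraries lettered B (0.115). In tumors Nlrp3 alone passed, at 0.52 ± 0.16 (adjusted p = 0.0461), beside 5.71% of genes higher and 1.75% lower. Nlrp3 had 19.9 and 9.92 normalized counts in Tumor_1 and 12.6 and 14 in Tumor_2, both means above every clone, and it did not pass without either tumor (0.3 and 0.601), with log2(normalized count + 1) (0.0773) or in the libraries lettered B (0.168). Casp4 in tumors was 1.22 ± 0.69 above the clones (0.333) and Casp1 0.97 ± 1.01 (0.66). With libraries scaled to their total reads without the ribosomal precursor Rn45s, Nlrp3 (adjusted p = 0.0401) and Pycard (0.0469) also passed in the lungs, and the share of called genes that were higher moved from 66.1% to 81% in the lungs and from 76.6% to 91% in the tumors. Tumor and lung comparisons share the same clones, so their values are given side by side and not counted as separate evidence.

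The caspase family as a whole was higher in the lungs than in the tumors. All 9 caspase genes tested passed in that direction, with a median difference of 0.65 against 0.02 over all genes, where 16.6% of genes were higher and 14.8% lower. The counts of the lists that follow stand beside these same shares. Casp12 differed by 1.19 ± 0.21 (adjusted p = 0.00394) and Casp9, the initiator of mitochondrial apoptosis, by 0.68 ± 0.12 (0.00474). Of 12 sensors and adaptors tested, 6 were higher and 0 lower, among them P2rx7 by 1.38 ± 0.13 (0.000227) and Naip2, a sensor of bacterial secretion proteins, by 1.03 ± 0.15 (0.00188). Genes needed 10 normalized counts in 2 libraries of this comparison, so low ones could enter through the lungs. Mefv (means of 5.62 in tumors and 15.1 in lungs) and Naip5 (6.57 and 22.9) could not have entered without them. The counts of 6 and 0 are therefore a description. Of 5 genes for gasdermins and membrane rupture, 2 were higher, Ninj1 by 0.66 ± 0.14 (0.00774) and Gsdmc2, named after its values were seen, by 0.52 ± 0.12 (0.0132). Gsdmc2 had 9.96 normalized counts in the lungs and 1.3 in the tumors. It entered the test only through the lungs, so its passing is given as a description. In the interleukin-1 family 4 genes were higher and 4 lower of 11 tested: Il33, another alarmin, was higher by 1.35 ± 0.25 (0.00493) and Il1r1, the interleukin-1 receptor gene, by 1.06 ± 0.12 (0.000488), whereas Il1a was lower at -4.9 ± 0.18 (4.19e-06), with 2722 and 3345 normalized counts in the tumors and 33.2 and 67.3 in the lungs. Il18 and Il1a thus went in opposite directions between the same specimens. Of the 16 genes in the guanylate-binding protein list 14 were higher and 0 lower, with Gbp7 at 2.82 ± 0.34 (0.000759). Of 20 in the interferon axis 12 were higher, and the 3 lower ones were the receptor genes Ifnar2, Ifngr1 and Ifngr2 (-0.59, -0.51 and -0.41, named after their values were seen). Of 19 tested for priming, the step that induces inflammasome genes, 7 were higher and 6 lower, with Tnfaip3, Nfkb2 and Nfkbia, which NF-kB induces, lower at -1.02 to -0.81.

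Markers of other cells differed between the same specimens, and their counts too stand beside 16.6% of all genes higher and 14.8% lower in the lungs. In bulk RNA, fewer cells of a type and less RNA per cell cannot be told apart. The summed level of 10 macrophage markers was 937.5 and 735.5 normalized counts in the tumors and 1281 and 2861 in the lungs, against 91.1 to 664.7 in the clones, and 4 of 10 were higher in lungs than in tumors. C1qa, at 0 in the clones, had 3.68 and 7.58 in the tumors and 12.1 and 36.7 in the lungs. It too needed the lung libraries to enter the test, so the counts of markers called are descriptions. The 8 pan-leukocyte markers summed to 1647 and 1627 in the tumors and 2654 and 3176 in the lungs, with 4 of 8 higher, and Ptprc had 15.2, 7.69, 13.7 and 63.2. In the clones the pan-leukocyte sum ran from 137.8 to 2783, and Itgb2 alone had 1506, 1511, 2467 and 2643 in the 4 specimens. The 7 fibroblast markers summed to 770.5, 668, 1728 and 4420, against 121 to 1802 in the clones, with 2 of 6 tested higher. Pdgfra alone had 568.6, 511.7, 1492 and 3394. The 7 mammary carcinoma markers summed to 27080 and 24210 in the tumors and 21950 and 15450 in the lungs, with 5 of 7 lower. Neutrophil markers summed to 32.3 and 39.4 in the tumors and 64.5 and 56.2 in the lungs, against 1.51 to 911.7 in the clones. Of these, 1 of 2 tested was higher in the lungs, and no lymphocyte marker could be tested there. Endothelial markers (94.8 to 118.9) and lung epithelial markers (38 to 61.2) had 0 of 4 and 0 of 2 genes called, and Sftpc, the surfactant gene of alveolar cells, was at 4.54 or less. Lung_2 was the highest of the 4 specimens for macrophage, pan-leukocyte and fibroblast sums and for Casp1, Casp4 and Il18. The part of these cells in the caspase differences was not tested.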

How the data were processed

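RNA was measured by RNA-seq in 54 libraries of 27 clones and specimens. Per the labels' protocols, 100 ng of total RNA was amplified with a NuGEN Ovation kit and sequenced with reads of 76 bases. The submitters' processing notes name DESeq, HTSeq, Bowtie2 and the build mm10, and the sources used here give no version, setting or strand. The authors deposited log2 values on a variance-stabilising curve, read from the values themselves. Inverting the curve gave normalized counts, and whole reads (within 0.01) for 100% of values in every library. Rows without a read numbered 1316. There were 0 columns without a sample.

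Differences were tested on the deposited values with limma 3.58.1 in R 4.3.3, two-sided, with a trend of variance on mean, Benjamini-Hochberg adjustment over all genes tested and a threshold of 0.05. Clones were compared over their libraries in 1 fit, and specimens on 1 value each. Genes with 10 normalized counts in 2 or more of a comparison's libraries were tested. No count model was run, because the deposited unit is log2. Each fit was tested on simulated data with known changes. The 2 libraries of a clone were its replicates only in the comparisons among clones. In the tumor and lung comparisons they were averaged, and the clone or specimen was the replicate.

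The members and gene lists were chosen with earlier results of these data known. Named from each pathway list were called genes whose higher group averaged 50 normalized counts or more, up to 4 per list by size of difference; for each member, the 5 most correlated genes over clones; and 3 neighbours on each side of Casp1 and Casp4. Promoters came from RefSeq (GRCm38.p6), where 6 of 7 members matched and the share of windows with a motif left out chromosome 18, and transcript lengths from GENCODE. Other filters, scales, scalings, single letters, left-out libraries or specimens, and a block for the library letter were tried as alternatives.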

Additional observations from a re-analysis of the deposited data

How the results depend on the processing

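Over 357 recomputed values of single members, 314 kept their direction and their side of the threshold, 22 lost their call, 6 gained one and 15 changed sign, all 15 of them differences that passed no threshold. The tests among the 21 non-intravasating clones gave 6 members under every alternative that kept them in the test; without clone G, 5 passed because Aim2 had too few counts to be tested, and 5 passed at a filter of 50 counts, where Nlrp3 was not tested. A replicate block for the library letter left 6 members called there (13086 genes) and 1 in clone E against T (4207 genes). Deviations of libraries from their clone means correlated between clones at -0.502 to 0.637 by letter, with a median of 0.0802. Of 253 pairs of clones, 113 were above 0.1, and 19 of 23 clones correlated best with their own letter. Whether libraries of the same letter share an effect was not tested. In clone E against T, leaving out 1 library gave 2535 to 3891 genes called, with 2535 without clone T replicate A, and differences of -0.163 to 0.0397 for Casp1, -0.296 to 0.0774 for Casp4, -0.112 to 0.136 for Aim2 and -0.256 to 0.137 for Pycard. In tumors against clones, called genes numbered 2249 without a filter, 456 at 50 counts, 321 in A libraries and 126 to 380 without a tumor. Members called were 0 at 50 counts (where Nlrp3 was not tested), with log2(normalized count + 1), in B libraries and without either tumor, and 2 without clone G, where Aim2 reaches the filter mainly through the specimens and the clone with its highest values is absent. In lungs against clones, called genes numbered 8068 without a filter, 1701 at 50 counts, 1624 in B libraries and 526 to 827 without a lung. Members called were 1 at 50 counts, 0 with log2(normalized count + 1), 4 with scaling to total reads without Rn45s, 1 in B libraries and 0 without either lung. In lungs against tumors, called genes numbered 2645 without a filter, 2856 in A libraries, 348 in B libraries, 151 in the fit of all 27 values and 1317 to 4650 without a specimen. Members called were 1 in B libraries, 0 in the fit of all 27 values and 1 to 5 without a specimen, where the lone specimen of an arm is assumed to vary like the others. Casp4 did not pass without a filter (adjusted p = 0.0569). Pycard's difference was 0.0383 with log2(normalized count + 1), 0.0212 with scaling to total reads, 0.0462 in A libraries and -0.0927 to 0.0904 without a specimen. Aim2's was -0.00378 in B libraries and -0.0372 to 0.398 without a specimen, and Gsdmd's -0.0775 in B libraries. The cause of these changes was not tested. One read was worth 0.51 to 1.95 normalized counts in the clones, and 22 of 23 clones had a mean under 10 for Nlrp3, 21 for Aim2, 7 for Casp4, 5 for Casp1, 2 for Il18 and 0 for Pycard and Gsdmd, so order among those clones rests on few reads.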
